A study of Ovis aries with 4 samples.

Results

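The oocyte genes NOBOX, FIGLA, NLRP14, PADI6 and NPM2 were followed through the m6A peak lists of young and aged sheep ovaries. They were taken by gene name from the deposited lists, and all 5 had a peak, out of 5261 genes with a peak at either age. The members were chosen with earlier results of these data known, so a peak in all 5 is not a result. N6-methyladenosine, or m6A, is a methyl group on adenosines inside messenger RNA, and it was mapped here by pulling down RNA fragments with an antibody against it. The groups were ovarian tissue of young Cele black sheep, aged 1 to 2 years, and of aged ones, 5 to 6 years, each with an anti-m6A immunoprecipitate and an input library with no antibody, which makes 4 samples. No treatment or genotype is named for either group, and whether a sample pooled several animals is not given in the sources used here. Each age had 1 peak list, so differences between the ages have no replicate check and the values below describe these lists.

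An oocyte stores messenger RNA while it grows and later uses it, without new transcription, to mature and to start the embryo. Marks that act on the translation and decay of RNA, such as m6A, are therefore of interest in this cell. FIGLA and NOBOX are transcription factors of the germ line: FIGLA switches on the genes of the egg coat and is needed to form primordial follicles, and NOBOX is needed for those follicles to grow. PADI6 is a building block of the fibrous lattices of the egg cytoplasm, and NLRP14 belongs to the family of NLRP proteins, several of which are supplied to the embryo by the mother. NPM2, nucleoplasmin, is a histone chaperone of the egg nucleus. In whole ovary, the oocyte is a small part of the tissue, and fewer oocytes and less RNA per oocyte cannot be told apart.

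Peaks are transcript regions enriched after the pull-down, and their folds and p-values, raw and adjusted, are the authors' own. The young list held 4378 peaks with a median fold of 2.05, and the aged list 3656 peaks with a median fold of 1.88. The median log10 p was -15.3 for young and -6.22 for aged peaks, so equal values may not mean the same in both, and sequencing depth was not given. The lists held no peak with a fold under 1.5, so a gene without a peak may still carry m6A. The input libraries were not used here, and the abundance of each transcript is unknown. Of the genes fixed as cell type markers, 4 of 10 granulosa, 5 of 9 theca and luteal, 6 of 9 stromal, 5 of 6 endothelial and 3 of 6 macrophage genes had a peak, against 24.5% of the 21300 protein-coding genes in the gene table used below. By age, 3 endothelial genes were aged-only and 0 young-only, 4 stromal genes were young-only and 1 aged-only, and 3 theca and luteal genes were young-only and 1 aged-only. Of the granulosa genes 1 and of the macrophage genes 2 were young-only, and 0 of either were aged-only. For reference, the young-only share over the 5261 genes was 41.3% and the aged-only share 26.9%, so young-only was the larger class there too. The part of cell composition in the counts of the oocyte genes was not tested. Of 7 oocyte markers, FIGLA and NOBOX, both members by choice, had a peak, and ZP3, GDF9, BMP15, DDX4 and DAZL had none. Of 5 genes of sperm and testis, taken as absent in ovary, AKAP4 had a peak, in the young list. A peak in a marker gene is therefore not read here as a sign that its cell type was present.

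Of the 5 oocyte genes, 3 had a peak in the aged list only, 1 in the young list only and 1 in both. NOBOX, NLRP14 and PADI6 were the aged-only genes, FIGLA was the young-only gene, and NPM2 was the gene found at both ages. Over all 5261 genes, the aged-only share was 26.9%, the young-only share 41.3% and the share found in both 31.8%. The aged-only share of the members, 60.0%, was above that background, but it rests on 3 genes in 1 list, 3 of 5 endothelial markers were aged-only as well, and the members were chosen with earlier results of these data known. Each member had 1 peak in each list where it appeared, which gave 2 young and 4 aged peaks. A single peak was also the rule among all genes, at 87.9% of young and 84.9% of aged genes.

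**Figure D1:**
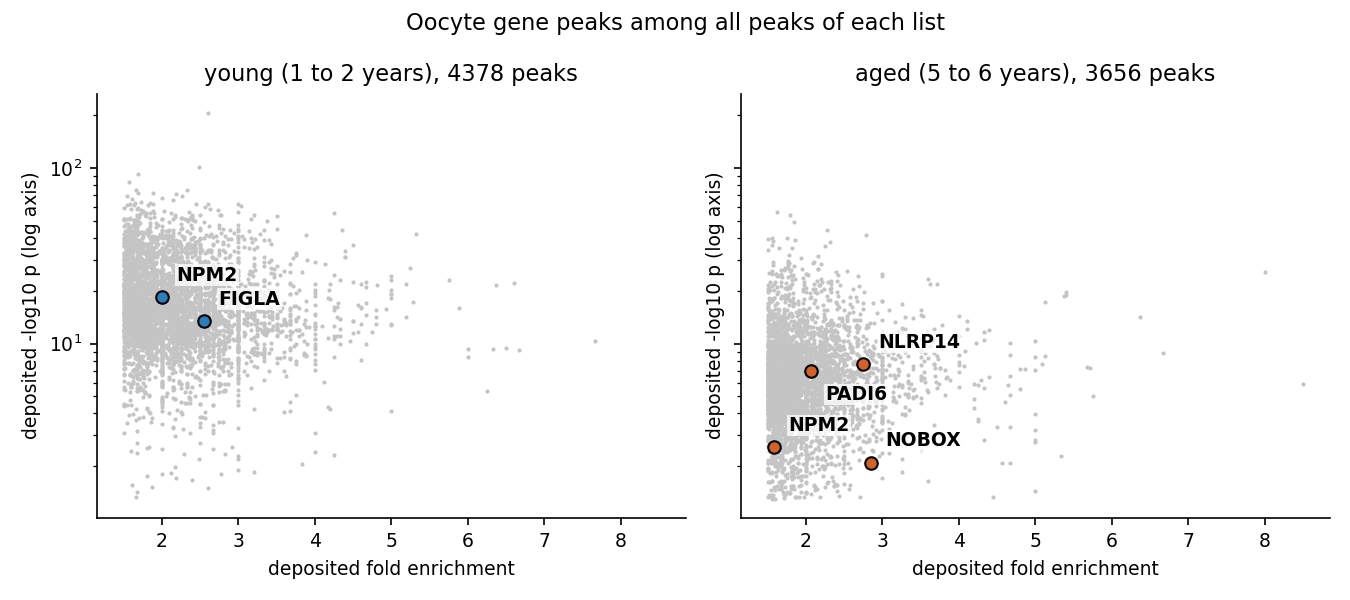
Deposited fold enrichment (horizontal) and -log10 p (vertical, log axis) of every peak in the young list (left, 4378 peaks) and the aged list (right, 3656 peaks); grey points are all peaks and coloured points the oocyte genes. NOBOX lies low and to the right in the aged list, with a fold of 2.85 and a log10 p of -2.09, and the aged NPM2 peak lies low and to the left, with 1.58 and -2.56.

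Of the transcription factors, FIGLA was called in the young list and NOBOX in the aged list. The FIGLA peak lay on chromosome 3 (92858960 to 92867745, minus strand) with a stop codon label, a fold of 2.55 and an adjusted p of 6.31e-14. Its fold was higher than that of 75.9% of young peaks, and its p-value was smaller than that of 37.7% of them. No aged peak overlapped it, and the nearest aged peak on the same strand lay 216 kb away, in PAIP2B. FIGLA was thus in the upper part of its list by fold and below the middle by significance.

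The NOBOX peak lay on chromosome 4 (108822981 to 108823228, minus strand) with a 3' UTR label, a fold of 2.85 and an adjusted p of 0.0245. Its fold exceeded that of 92.0% of aged peaks, the highest rank among the 6 member peaks, whereas its p-value was smaller than that of only 4.16% of them. Of 3656 aged peaks, 6, NOBOX included, had both a fold at least as high and a p-value at least as large. No young peak overlapped it, and the nearest on the same strand was 4339 kb away. The highest fold of the group thus came with the weakest p-value of the group, and with an adjusted p of at most 0.01 NOBOX would have no peak.

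The NLRP14 and PADI6 genes, whose products are cytoplasmic proteins of the egg, were called in the aged list with stronger p-values than NOBOX. The NLRP14 peak lay on chromosome 15 (45327479 to 45328585, minus strand) with a 3' UTR label, a fold of 2.75 and an adjusted p of 1.95e-07. By fold it exceeded 90.3% and by p-value 66.2% of aged peaks. The PADI6 peak lay on chromosome 2 (248900187 to 248902222, minus strand) with an exon label, a fold of 2.06 and an adjusted p of 7.08e-07. It exceeded 64.3% of aged peaks by fold and 59.8% by p-value. The nearest young peaks on the same strand were 450 kb from NLRP14, in OLFML1, and 384 kb from PADI6, in CROCC. Neither gene therefore had a young peak nearby under another gene name.

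NPM2 was the one member that could be compared within a single stretch of transcript. Its young peak lay on chromosome 2 (43569391 to 43571148, minus strand), with a fold of 2.00 and an adjusted p of 1.26e-18. Its aged peak lay at 43569440 to 43571099, with a fold of 1.58 and an adjusted p of 0.00871. The young fold exceeded that of 41.7% of young peaks and the aged fold that of 13.0% of aged peaks, so NPM2 ranked below the middle of both lists by fold. The young peak held the aged peak whole, and extended beyond it by 49 bases on either side. The shared span of 1660 bases made up 94.4% of the young and 100% of the aged peak.

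An aged fold below the young one, as in NPM2, was found in most overlapping pairs. The aged fold was 0.790 times the young fold, against a median of 0.961 over all 1530 overlapping pairs of young and aged peaks. A lower ratio than that of NPM2 was found in 27.1% of these pairs, and the aged fold was the lower one in 56.3%. The log10 p of NPM2 was weaker by 15.8 in the aged list, and the median pair was weaker by 8.34. The difference of NPM2 was larger than that of 78.4% of pairs. The NPM2 values thus differed in the same direction as those of the median pair.

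**Figure D2:**
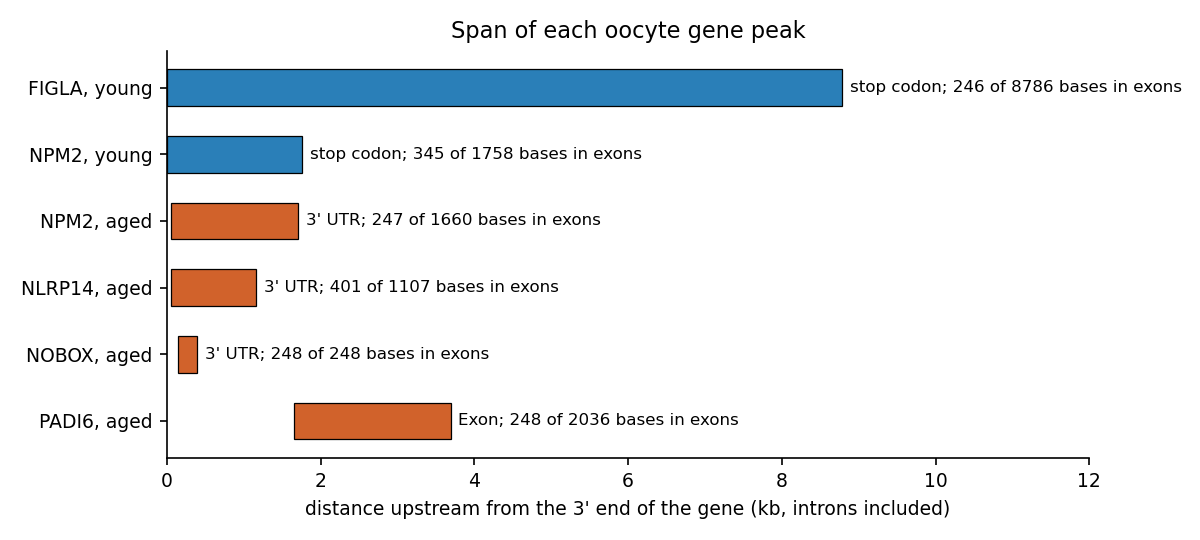
Span of each member peak, as distance upstream from the 3' end of its gene in kb (horizontal, introns included); blue bars are young and orange bars aged peaks, with the deposited label and the bases in exons beside each. The FIGLA peak spans 8786 bases with 246 in exons, and the NOBOX peak is the one that crosses no intron.

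Introns were crossed by most of the member peaks. The deposited width of a peak was at most its span from start to end, and where it was smaller the peak was read as crossing introns, with the width as its bases in exons. By this measure 5 of the 6 member peaks, 83.3%, crossed an intron, both young peaks and 3 of 4 aged peaks. Over all peaks the shares were 16.9% of young (95% Wilson interval 15.8 to 18.0) and 22.5% of aged peaks (21.2 to 23.9), intervals that cover counting error only. FIGLA showed the widest gap, with 246 bases in exons along 8786 bases of genome, and only 2.22% of young peaks held more intron. PADI6 had 248 of 2036 bases in exons and NLRP14 401 of 1107. The NPM2 peaks had 345 of 1758 bases when young and 247 of 1660 when aged, and both left out 1413 bases of intron. NOBOX had all of its 248 bases in exons.

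The share of peaks that crossed an intron differed between labels over the whole lists. Peaks labelled exon crossed introns in 60.8% of aged cases, so the PADI6 peak was like most peaks of its label. Peaks labelled stop codon did so in 13.0% of young cases, to which FIGLA and young NPM2 belong. Peaks labelled 3' UTR did so in 12.5% of aged cases, to which NLRP14 and aged NPM2 belong. The 18 peaks of the other oocyte genes described below crossed an intron in 3 cases, 16.7%, close to the share of all peaks. Crossing was thus seen in 4 of the 5 members, with both NPM2 peaks over the same intron, and the other oocyte genes were near the share of all peaks. Crossing was not among the planned comparisons, and the members were chosen with earlier results of these data known. Nothing is therefore read from the difference between the members and the other genes.

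All 5 genes lie on the minus strand, against 47.7% of all genes with a peak, and the strand bears on the labels. Both young peaks, FIGLA and NPM2, were labelled stop codon, a label held by 39.0% of young minus-strand peaks. Of the 4 aged peaks, NOBOX, NLRP14 and NPM2 were labelled 3' UTR and PADI6 exon, labels held by 76.9% and 17.1% of aged minus-strand peaks. The stop codon label was held by 2.58% of aged peaks on the minus strand and by 27.5% of those on the plus strand. A label that differs between ages on the minus strand, as in NPM2, is therefore not read here as a move of the mark.

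**Figure D3:**
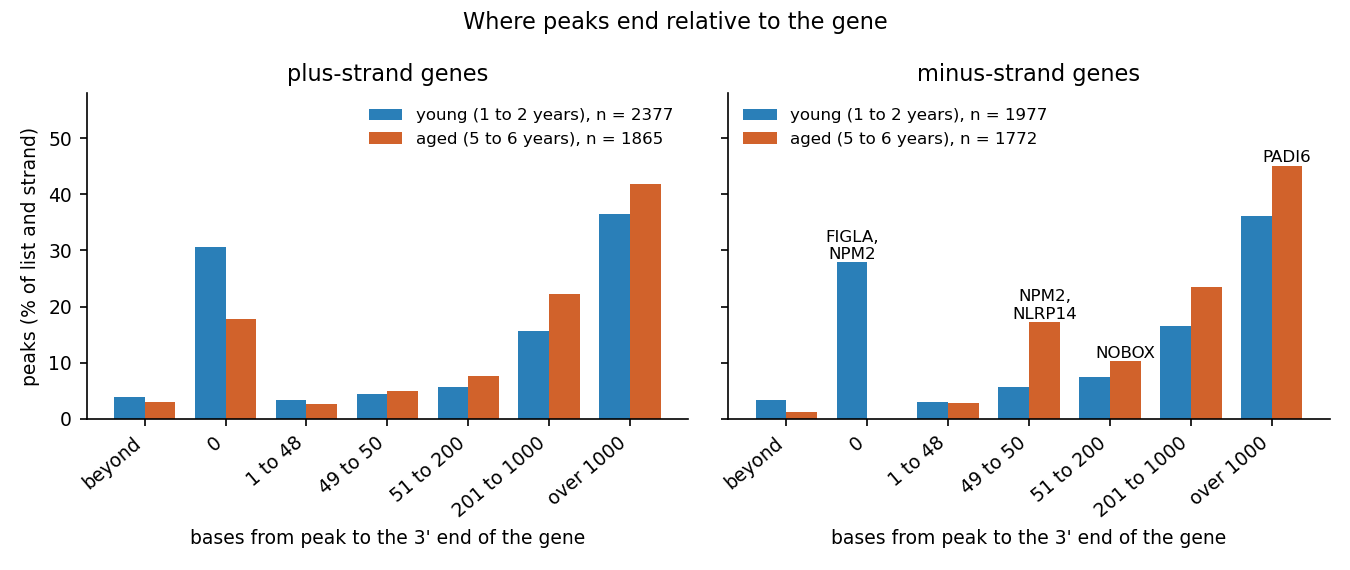
Share of peaks (vertical, percent of the list and strand) by the distance in bases from the peak to the 3' end of its gene (horizontal classes; beyond means past that end), for plus-strand genes (left) and minus-strand genes (right), young in blue and aged in orange; names mark the class of each member peak. No aged minus-strand peak lies at 0, and 17.2% lie at 49 to 50 bases, the class of NPM2 and NLRP14.

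The distance of each peak to the 3' end of its gene was measured without use of the label. It is not separate evidence, because gene-end peaks (0%) and stop codon labels (2.58%) were both scarce on the aged minus strand. Gene ends were taken from a RefSeq gene table of assembly ARS-UI_Ramb_v3.0. No build is named for the peak files, but many peaks ended on exactly these bases. The young FIGLA and NPM2 peaks both reached the final base of the gene, as did 27.9% of young minus-strand peaks. The aged NPM2 peak ended 49 bases and the NLRP14 peak 50 bases before it, NOBOX 148 bases and PADI6 1656 bases before it. On the aged minus strand 0 of 1772 peaks ended on that base, where 3 counts would be 0.169%, and 17.2% ended 49 or 50 bases before it. The corresponding shares on the aged plus strand were 17.7% and 4.99%.

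The 49 bases by which the young NPM2 peak ran further 3' recurred in other genes of that strand. Among 694 overlapping minus-strand pairs, the aged peak stopped 49 or 50 bases short of the young one at the 3' side in 46.8%, and on the plus strand in 11.1% of 836 pairs. Where the young minus-strand peak was labelled stop codon, as in NPM2, the aged label was 3' UTR in 90.9% of 243 pairs, and on the plus strand in 20.5% of 331. In these stop codon pairs the aged peak stopped 49 or 50 bases short at the 3' side in 77.0% on the minus strand and 11.2% on the plus strand. The 3' boundary and the label of NPM2 thus followed what most minus-strand pairs of that kind showed, and their part in any difference between ages was not tested. A difference of 49 or 50 bases at both sides, as in NPM2, was found in 31 of the minus-strand pairs.

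Other genes of the oocyte were counted in a list of 121, arranged by role and with the members included, of which 112 were in the gene table. A peak was found for 19 of them. Without the 5 members, which were chosen with the lists known, it was 14 of 107 genes, 13.1%, against 24.5% of all protein-coding genes of the table. By age, 7 of the 19 were young-only, 8 aged-only and 4 found in both, and matching by deposited symbol gave 9, 8 and 4. Without the 5 members, 6 were young-only, 5 aged-only and 3 found in both, beside 41.3%, 26.9% and 31.8% of all genes. The order of the first 2 counts turned with equal list lengths, to 5 young-only and 6 aged-only, where all genes gave 37.4% and 32.8%. With exon and UTR labels only the counts were 3 and 4, and the order over all genes turned as well, to 32.4% and 41.3%. No order is therefore read from these 14 genes. Of these 14 genes, 10 lie on the minus strand. Some of the 14, such as TUT7, LSM14B, CDC25B and TPST2, are not restricted to the oocyte. In whole ovary their peaks may come from other cells, so the counts do not describe the oocyte alone.

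**Figure D4:**
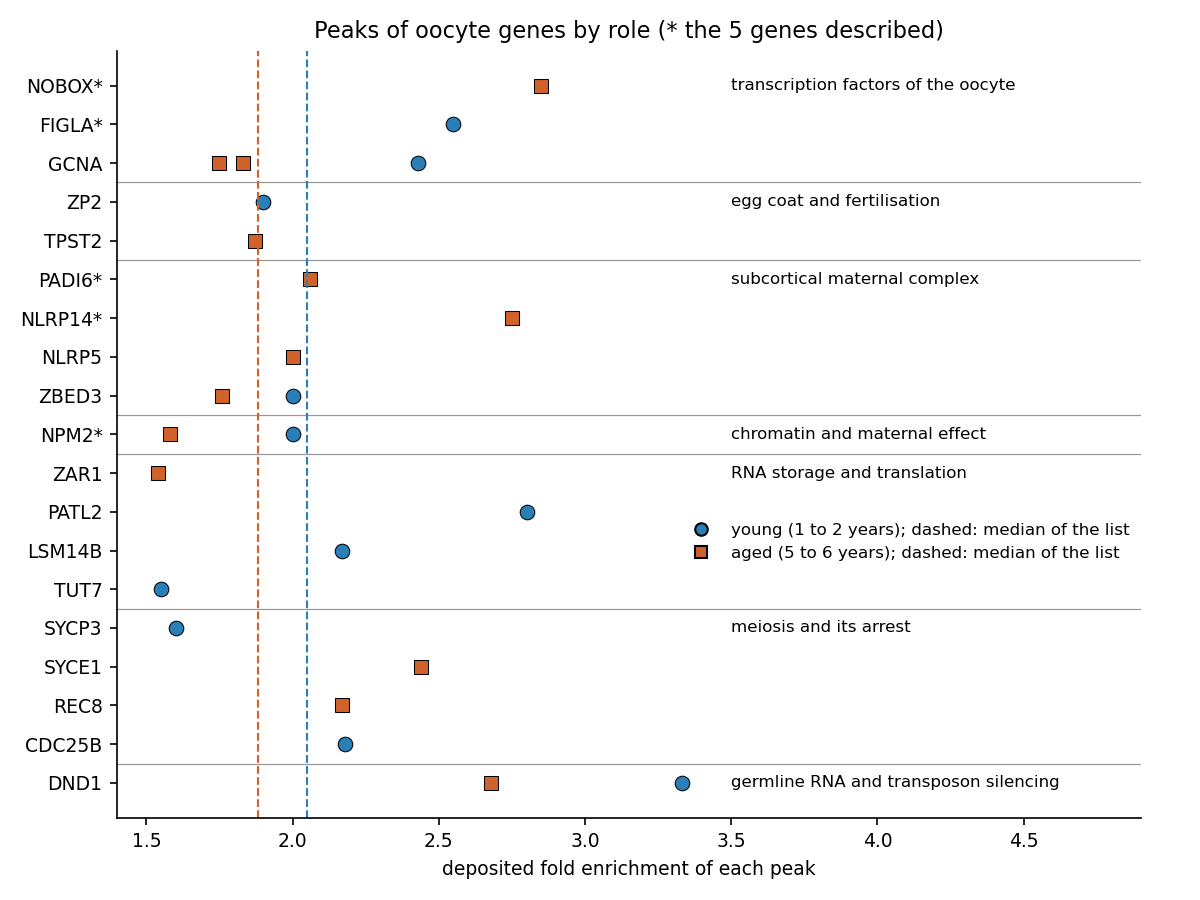
Deposited fold enrichment (horizontal) of each peak of the 19 oocyte genes with one, grouped by role; blue circles are young and orange squares aged peaks, dashed lines the median fold of each list, and asterisks mark the 5 members. NLRP14, PADI6 and NLRP5 have aged squares only, and DND1 has the highest young fold of the set, 3.33, and NOBOX the highest aged fold, 2.85.

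Among the lattice, maternal complex and NLRP genes, 3 were aged-only and 1, ZBED3, was found in both, where 26.9% and 31.8% of all genes were. PADI6 and NLRP14 are among the 3 by choice, which leaves NLRP5. NLRP5, a core protein of the subcortical maternal complex, had an aged peak with a fold of 2.00. It lies on the plus strand of chromosome 14, and its peak was labelled stop codon. The ZBED3 peaks, with folds of 2.00 and 1.76, did not overlap. Genes with the deposited symbols NLRP7 (2.67) and HIRA (2.39), a histone chaperone of the chromatin group, but with LOC names had young-only peaks. They may be copies of the named genes and were counted only where matching was by deposited symbol.

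In the transcription factor group of the list, FIGLA was young-only and NOBOX aged-only, and both are there by choice. GCNA, grouped with them though not itself a transcription factor gene, was found in both lists. GCNA, a germ cell nuclear protein gene, had a young fold of 2.43 and aged folds of 1.83, with an adjusted p of 0.338, and 1.75. Of the egg coat genes that FIGLA is known to switch on, ZP2 had a young peak, with a fold of 1.90, a stop codon label and an adjusted p of 5.01e-31. ZP3, another of these genes, had no peak, and 2 of the 7 egg coat and fertilisation genes in the gene table had one. A young-only peak, as in FIGLA and ZP2, was found for 41.3% of all genes, and nothing is read from the pair. The tyrosylprotein sulfotransferase gene TPST2 was aged-only (1.87). None of the 6 secreted factor and receptor genes, GDF9 and BMP15 among them, had a peak.

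Genes for RNA storage and translation were 3 young-only and 1 aged-only, too few to set against the 41.3% and 26.9% of all genes. PATL2, which keeps maternal RNA untranslated, had a young fold of 2.80, LSM14B 2.17 and the terminal uridylyltransferase gene TUT7 1.55, while ZAR1, an organiser of RNA storage, had an aged fold of 1.54. Meiosis genes were divided equally, with the synaptonemal complex gene SYCP3 (1.60) and the phosphatase gene CDC25B (2.18) young-only, and SYCE1 (2.44) and the cohesin gene REC8 (2.17) aged-only. DND1, a germ cell RNA-binding protein gene, was found in both lists with identical boundaries, a young fold of 3.33 and an aged fold of 2.68. A young peak of WDR55, a gene on the opposite strand, overlapped the same region (2.83), so the DND1 peaks lie where reads of 2 genes may meet. The DND1 ratio of aged to young fold was 0.805, close to the 0.790 of NPM2, and that of the overlapping GCNA peaks was 0.720. The aged fold was thus the lower one in these 3 pairs, as it was in 56.3% of all overlapping pairs.

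The deposited gene ontology terms gave a further grouping, chosen after the values had been seen. NOBOX carried a term for oogenesis, FIGLA for oocyte development and NPM2 for oocyte differentiation, and PADI6 and NLRP14 carried no term that names the oocyte. Of 20 genes with a peak and a term that names the oocyte or oogenesis, 11 were young-only, 5 aged-only and 4 found in both. In the same order, the background shares over the 5261 genes were 41.3%, 26.9% and 31.8%. The young-only genes included NPR2 (1.85), the receptor through which granulosa cells hold the oocyte in meiotic arrest, the kinase genes SRC (2.32) and AURKA (1.56), and METTL3 (1.83), the m6A methyltransferase. The aged-only genes included KMT2D (2.14), a histone methyltransferase gene, and PAQR7 (1.50), a membrane progestin receptor gene. By this grouping the young-only genes were the more numerous, as they were among all genes.

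Genes with the most similar pattern were named by a fixed rule, as those with the same presence and labels, 1 peak per list and the closest fold. FIGLA was matched by TUBB4A and CNIH4, both with a young fold of 2.55. NLRP14 was matched by CSRNP2 and RFTN2, both with an aged fold of 2.75, NOBOX by SOX6 (2.84) and C1H21orf91 (2.83), and PADI6 by BHLHE40 and ZNF619, both at 2.08. NPM2 was matched over both lists by NOLC1, with folds of 2.00 and 1.61, and TCF19, with 2.04 and 1.58. The candidates numbered from 167 for PADI6 to 877 for FIGLA, so close matches in fold are common. A match in fold was not always one in p-value. The log10 p was -13.2 for SOX6 and -2.77 for C1H21orf91, against -2.09 for NOBOX.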

How the data were processed

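The young and the aged immunoprecipitate each had 1 deposited peak list, and groups followed the age and antibody labels. Stranded total RNA libraries were prepared from Trizol extracts, per the labels' protocols. The aligner, the caller and the build were not given in the sources used here. ChIPseeker and DESeq2 are named without a role, per the submitters' processing notes. Per the file headers, the authors give each peak a p-value, an adjusted p-value and a linear ratio named fold enrichment. The columns of log10 p, as deposited, were read as a score. Sequencing depth was not given.

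Members were matched by gene name. Rows with the same position and strand counted as 1 peak, and starts, counted from 0 in the files, were raised by 1. Peaks formed an overlapping pair if they shared at least 1 base on the same strand, introns included. Gene ends and chromosome numbers came from a RefSeq gene table (ARS-UI_Ramb_v3.0) matched by gene identifier for 99.5% of peaks in each list. Named genes were the members, every gene of the oocyte list with a peak, and the 2 genes closest to each member. Genes of the deposited terms, genes nearest to a peak and WDR55 were named outside that rule. The members and lists were chosen with earlier results of these data known. Alternatives were a fold of at least the median over both lists, stricter adjusted p, equal list lengths, exon and UTR labels only, matching by symbol, every deposited row, an overlap of 50% of both peaks, and ranks by p-value or within a label. The code for overlapping pairs, presence and gene ends was tested on known answers planted in real peaks of the young list. The search for peaks of the other list at single genes, made on either strand, was not part of that test. Software was Python 3.11.15 with matplotlib 3.10.9, scipy 1.17.1, numpy 2.4.6 and pandas 2.3.3.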

Additional observations from a re-analysis of the deposited data

How the results depend on the processing

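No paired analysis was possible because each age had 1 peak list, numbered 1 in the young and 2 in the aged group. For the same reason no replicate could be left out. Matching by symbol made the 121 oocyte genes at 9 young-only, 8 aged-only and 4 in both. Members stayed at 1 young-only, 3 aged-only and 1 in both with symbol matching, an adjusted p of at most 0.05 and equal list lengths. An adjusted p of at most 0.01 lowered the aged-only count to 2. Over all genes with a peak, the aged-only share was 26.3% at the limit of 0.05 and 25.4% at 0.01. With a fold of at least 2.00, the median over both lists, the aged NPM2 peak was lost, and the members were 2 young-only, 3 aged-only and 0 in both. The oocyte genes in both lists then numbered 1. Over all genes the shares at that fold were 54.7% young-only, 26.1% aged-only and 19.1% in both. The setting of exon and UTR labels only leaves out the stop codon peaks of FIGLA and young NPM2. It gave 0 young-only, 4 aged-only and 0 in both for the members. For the 121 oocyte genes it gave 3 young-only, 8 aged-only and 2 in both. Over all genes it gave 32.4% young-only, 41.3% aged-only and 26.3% in both, so aged-only was then the largest class. Equal list lengths gave 6 young-only, 9 aged-only and 3 in both for the 121 oocyte genes. Over all genes the shares were then 37.4%, 32.8% and 29.8%. The overlap of the NPM2 peaks held at 50% of both peaks, and exon blocks were not run because the files give none. Ranked by p-value in place of fold, a peak exceeded 4.16% of its list for NOBOX, 37.7% for FIGLA, 66.2% for NLRP14, 59.8% for PADI6, and 63.7% and 7.17% for young and aged NPM2. Within its label by fold, it exceeded 80.8% for FIGLA, 68.2% for PADI6, and 49.0% and 14.3% for young and aged NPM2. The unknown depth limits every comparison of values between the lists.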
